A study of Mus musculus with 4 samples.

Results

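The proteasome genes of MMTV-Neu mammary tumours were described in 4 RNA sequencing libraries. They comprised 46 protein-coding genes of 38293 gene rows: the 20S core subunits (Psma and Psmb), the 19S cap subunits (Psmc and Psmd), the activators (Psme), the inhibitor Psmf1 and the assembly chaperones (Psmg). They were chosen by symbol alone, and the immunoproteasome genes Psmb8 and Psmb9 were not among them. The libraries came from 2 tumours of AXL KO genotype and 2 of WT genotype, all of the FVB strain. In MMTV-Neu mice a mammary tumour virus promoter drives the Neu (Erbb2) oncogene, so both groups carried that transgene and differed by the labels in the receptor tyrosine kinase gene Axl. The labels give no knockout design, age or treatment and do not say that the libraries came from separate animals, so p-values measure the spread between these samples, which may be technical.

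Gene reads numbered 19161051 and 33131739 in AXL KO replicates 1 and 2 and 21276336 and 18929743 in WT replicates 1 and 2. Axl itself had 4.75 and 4.89 CPM (a gene's read count scaled to the library's total) in the AXL KO libraries, against 61.8 and 35.2 CPM in the WT libraries. The luminal epithelial markers Epcam, Krt8, Krt18, Cdh1 and Erbb2 were all abundant, the lowest value being 341 CPM for Cdh1 in WT replicate 2. AXL KO replicate 2 has another description prefix than the other 3 libraries, so values without it are those within 1 prefix. WT replicate 2 stood apart from the other 3 libraries, and differences between the groups that rest on it are given with and without it.

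The proteasome is the protease that degrades ubiquitin-tagged proteins. Its barrel-shaped 20S core is built of alpha and beta rings, with the catalytic sites on beta subunits, and a 19S cap on the end recognises, unfolds and feeds in substrates. Interferon induces alternative parts: the catalytic subunit Psmb10 takes the place of Psmb7, and Psme1 and Psme2 form the PA28 activator, a cap without ATPase activity. These alternative forms are known for making peptides that are presented on MHC class I.

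The constitutive proteasome genes differed little between AXL KO and WT tumours, and the 3 interferon-inducible genes Psme1, Psme2 and Psmb10 had higher means in AXL KO, with WT replicate 2 the low library for each. The text gives differences as log2 of AXL KO over WT, with a standard error (SE), from edgeR's quasi-likelihood test. Of the 46 genes, 44 passed the low-count filter, 41 of them constitutive. The count passing the test at an adjusted p of 0.05 was 0 of 44, and 0 of all 14330 genes tested passed it (0.0%). Axl itself did not pass, at −3.33 ± 0.35 (SE, unadjusted p = 0.000184 and adjusted p = 0.9997 in edgeR's test). A count of 0 thus does not show that levels were equal. An unadjusted p under 0.05 was reached by 0 of the 44, against 314 of all genes (2.19%). Among the 44, the smallest unadjusted p was 0.17, for Psme2, and the smallest adjusted p 0.9997. The median log2 difference was −0.03 over the 41 constitutive genes and 0.43 over the 3 inducible genes, beside −0.0019 over all genes tested.

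**Figure D1:**
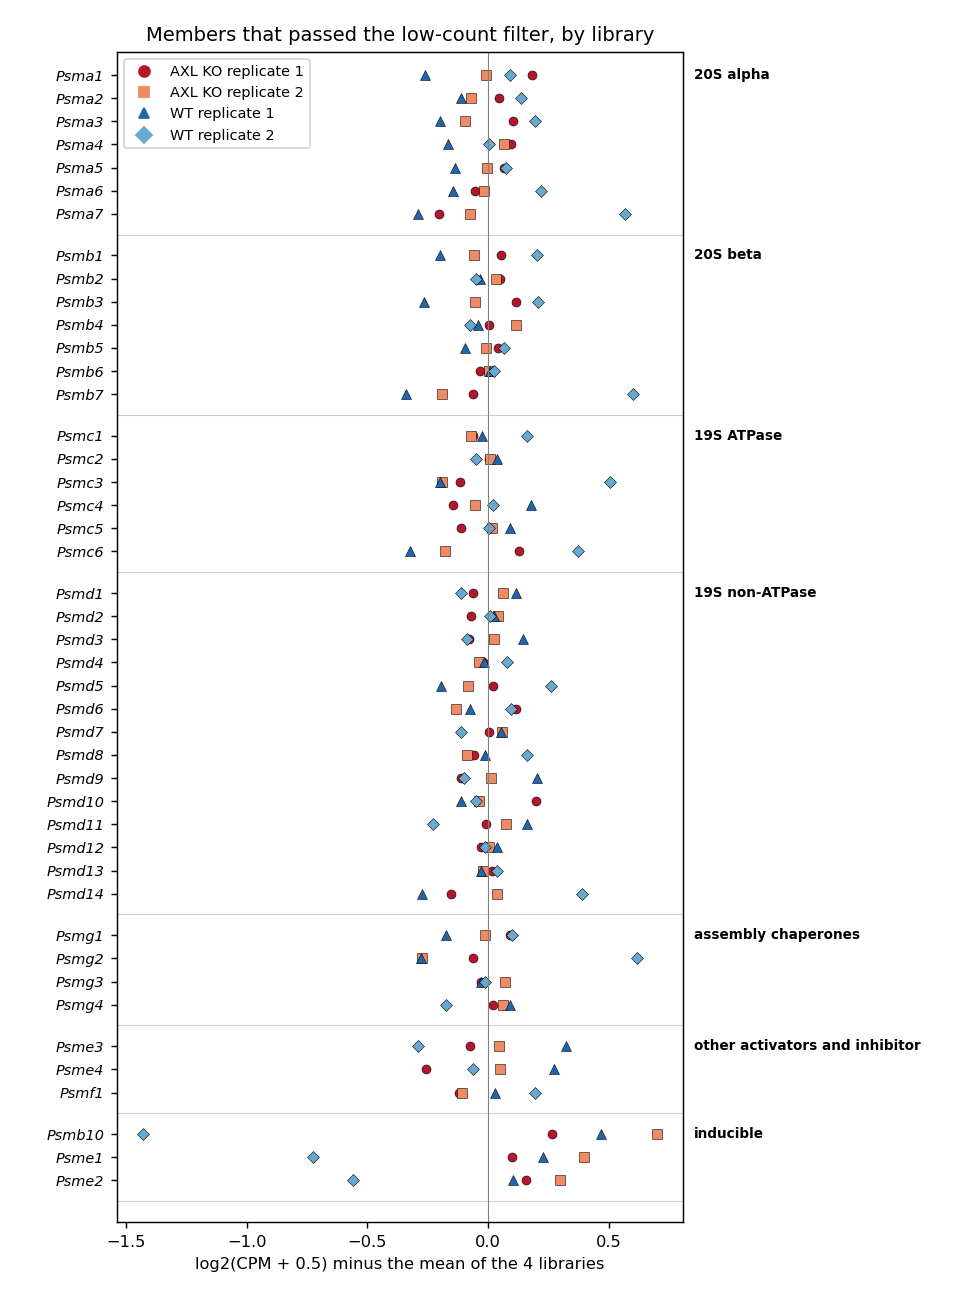
Each row is 1 of the 44 proteasome genes that passed the low-count filter, grouped by role, and each point is the log2(CPM + 0.5) of 1 library minus the mean of the 4 libraries. Most constitutive genes cluster near 0, WT replicate 2 lies far to the right for Psma7, Psmb7, Psmc3, Psmd14 and Psmg2, and it lies far to the left for Psmb10, Psme1 and Psme2.

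The inducible genes are described first. Psme1 (ENSMUSG00000022216) lies on the plus strand of chromosome 14 from 55578123 to 55581529 in GRCm38, and Psme2 (ENSMUSG00000079197) on the opposite strand at 55587441 to 55591113. Psmb10 (ENSMUSG00000031897) is a minus-strand gene of chromosome 8 at 105935735 to 105938444. Their start regions are shown because these genes were low together in 1 library. The windows are from RefSeq on GRCm38.p6, from 250 bases before to 50 bases after an annotated start, 5′ to 3′ on the gene's strand, and capitals mark a match to the interferon-regulatory-factor-type motif (GAAA, any 2 bases, GAAA) on either strand. They are chr14:55578244-55578543 (plus), chr14:55591052-55591351 (minus) and chr8:105938343-105938642 (minus).
Psme1: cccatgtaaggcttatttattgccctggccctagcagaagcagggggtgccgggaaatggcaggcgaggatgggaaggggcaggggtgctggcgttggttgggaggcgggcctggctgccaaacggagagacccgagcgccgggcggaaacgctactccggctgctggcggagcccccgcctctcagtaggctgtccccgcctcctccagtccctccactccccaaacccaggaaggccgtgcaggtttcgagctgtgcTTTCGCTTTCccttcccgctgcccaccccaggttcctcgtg
Psme2: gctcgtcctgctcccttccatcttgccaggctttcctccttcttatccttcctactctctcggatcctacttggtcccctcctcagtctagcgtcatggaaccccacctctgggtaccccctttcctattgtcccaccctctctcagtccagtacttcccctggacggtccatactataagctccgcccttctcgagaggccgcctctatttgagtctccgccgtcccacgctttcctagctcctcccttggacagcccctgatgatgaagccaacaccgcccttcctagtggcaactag
Psmb10: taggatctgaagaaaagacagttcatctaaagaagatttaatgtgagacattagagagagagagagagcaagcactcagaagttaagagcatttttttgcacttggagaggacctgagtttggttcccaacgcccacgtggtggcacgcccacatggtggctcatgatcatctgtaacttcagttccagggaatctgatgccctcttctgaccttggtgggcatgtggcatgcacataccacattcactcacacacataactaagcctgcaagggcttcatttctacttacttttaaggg
The Psme1 match reads GAAAGCGAAA on the other strand and begins 9 bases after the first transcribed base. The windows of Psme2 and Psmb10 held no match to that motif or to the other one searched. The Psmb10 window takes in 1 of 7 annotated GENCODE transcript starts, that of Psme2 3 of 10 and that of Psme1 7 of 13, so other starts of these genes lie outside it.

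The 2 motifs were searched on both strands in the windows of 38 proteasome genes. Windows of chromosome 18 were left out for all genes, so Psmg2 and Psma8 were not searched. The rest of the 46 genes, Psmb7 among them, had no window and were not searched either. The interferon-type motif was found in 5 of the 38 (13.2%), which were Psmb3, Psmd4, Psmd9, Psme1 and Psmg4. It was found in 3.99% of all 27025 genes searched. Those 27025 were not limited to the 14330 genes that passed the low-count filter, so the shares compare unlike sets. Against the mean of the other libraries, WT replicate 2 lay at −0.96 log2 units for Psme1. It lay at 0.27 for Psmb3, 0.10 for Psmd4, −0.14 for Psmd9 and −0.23 for Psmg4. The motif TGACNNNGC, bound by CNC-type factors such as the proteasome regulator NFE2L1, was found in Psmb5, Psmb6, Psmc6, Psmd12, Psmd9 and Psme4 (15.8%), against 14.0% of all genes. Motifs of different kinds can overlap, and a match is a run of letters, not a shown binding site.

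Psme1, the alpha subunit of PA28, had 103 and 126 CPM in AXL KO replicates 1 and 2, against 113 and 58.0 CPM in WT replicates 1 and 2. The groups overlapped, and WT replicate 2 alone was low. The means were 114.7 ± 16.7 CPM in AXL KO and 85.3 ± 38.7 CPM in WT (SD, n = 2 each), a log2 difference of 0.43 ± 0.35 (SE).

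Psme2, the beta subunit of PA28, had 72.3 and 79.8 CPM in the AXL KO libraries, against 69.6 and 43.8 CPM in the WT libraries. Both AXL KO values exceeded both WT values, by a small margin over WT replicate 1. The log2 difference was 0.42 ± 0.27 (SE). Psme2b, a single-exon copy of Psme2 on chromosome 11 that the symbol rule does not take, had 9.67 and 10.2 CPM in AXL KO, against 7.29 and 4.66 CPM in WT. Reads of the copy and of Psme2 are uncertain where their sequences match.

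Psmb10, the inducible beta subunit, had 41.1 and 55.7 CPM in AXL KO, against 47.5 and 12.4 CPM in WT. It varied most of all 44 genes, 4.51-fold between the highest and lowest library. The log2 difference was 0.69 ± 0.62 (SE).

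Without WT replicate 2 the log2 differences of Psme1, Psme2 and Psmb10 were 0.03, 0.13 and 0.03. Without WT replicate 1 they were 0.98, 0.80 and 1.97, with unadjusted p-values of 0.00589, 0.00722 and 0.00153 and adjusted p-values of 0.104, 0.112 and 0.0694 in edgeR's test. In that fit 8 of the 44 genes (these 3, Psmb7, Psma7, Psmc3, Psmd14 and Psmg2) had an unadjusted p under 0.05, against 20.3% of all genes, and 0 were called, against 1.51% of all genes. Without AXL KO replicate 1 the 3 log2 differences were 0.56, 0.49 and 0.89. Within the shared description prefix, that is without AXL KO replicate 2, they were 0.25, 0.33 and 0.44.

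**Figure D2:**
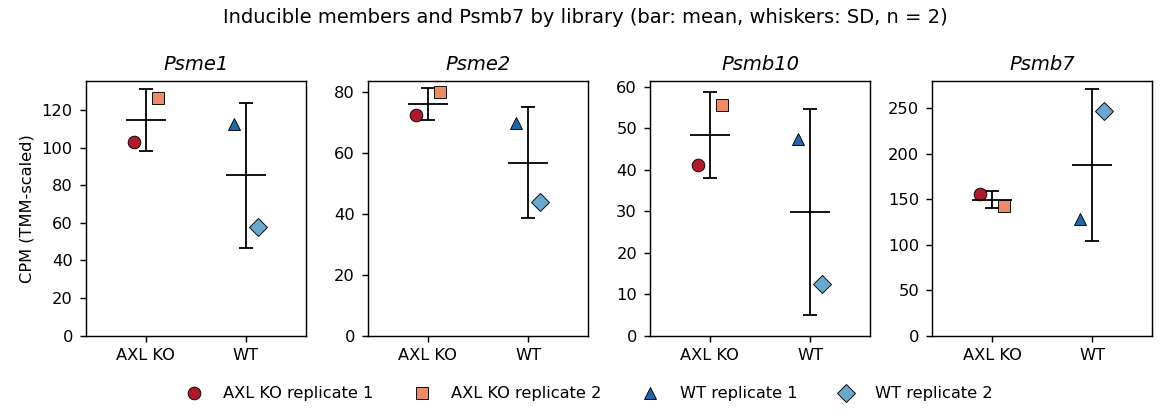
CPM of Psme1, Psme2, Psmb10 and Psmb7 in AXL KO (left) and WT (right) tumours, with the mean as a bar and the SD as whiskers (n = 2). WT replicate 2 is the lowest point for the inducible genes and, at 247 CPM, the highest for Psmb7.

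Psmb7, the constitutive catalytic subunit whose ring position Psmb10 takes, ran the other way. It had 156 and 143 CPM in AXL KO, against 129 and 247 CPM in WT, a log2 difference of −0.33 ± 0.33 (SE). Without WT replicate 2 the log2 difference turned to 0.21. Per merged exon length (TPM, the same scaling after division by length), Psmb10 made up 34.6% and 44.0% of the sum of Psmb10 and Psmb7 in the AXL KO libraries, against 42.6% and 9.13% in the WT libraries. The share in WT replicate 1 thus lay between those of the AXL KO libraries. The log2 ratio of Psmb10 to Psmb7 counts was −1.92 and −1.35 in AXL KO, against −1.44 and −4.32 in WT. Its means of −1.64 ± 0.40 and −2.88 ± 2.04 in AXL KO and WT (SD, n = 2 each) differed by 1.24, less than the SD in WT. A two-sided exact permutation test gave p = 0.667, where 0.333 is the smallest p that 2 against 2 libraries allow. Without WT replicate 2 the difference was −0.20, and without WT replicate 1 it was 2.68. Psmb7 lies on chromosome 2, whose 1157 tested genes were also high in WT replicate 2, by a median of 0.40 log2 units over the other libraries. Psmb7 itself was 0.80 log2 units above them. The share and the ratio thus take in both the low Psmb10 and the high Psmb7 of that library, and the cause was not tested.

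Set against the constitutive genes in each library, the mean log2 CPM of the 3 inducible genes was −0.42 and −0.12 log2 units away in the AXL KO libraries and −0.29 and −1.61 in the WT libraries. The difference between the 2 medians of log2 differences was 0.46, and −0.02 without WT replicate 2. The partners Psme1 and Psme2 kept a ratio per length of 1.14 and 1.27 in AXL KO and 1.29 and 1.06 in WT. Together they were 64.1% and 64.8% of the summed TPM of Psme1 to Psme4 in AXL KO, against 57.6% and 52.3% in WT. In TPM, Psme1 and Psme2 were nonetheless higher in WT replicate 1 (172.3 and 133.4) than in AXL KO replicate 1 (143.3 and 126.2). Psme3 and Psme4 were highest in WT replicate 1, at 150.7 and 74.5 TPM. The share thus takes in the levels of all of these genes.

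**Figure D3:**
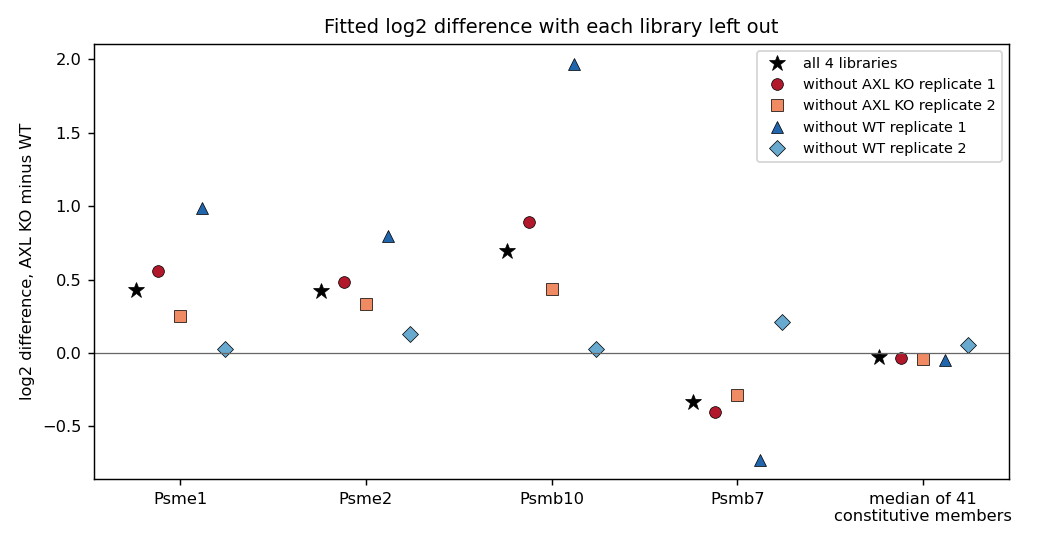
Fitted log2 difference (AXL KO minus WT) of Psme1, Psme2, Psmb10 and Psmb7 and the median over the 41 constitutive genes, with all 4 libraries (star) and with each library left out. Leaving out WT replicate 2 brings the inducible genes to between 0.03 and 0.13, and leaving out WT replicate 1 raises Psmb10 to 1.97.

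Other interferon-responsive genes were also lowest in WT replicate 2. Nlrc5, the MHC class I transactivator, had 102 and 149 CPM in AXL KO, against 88.0 and 3.87 CPM in WT. B2m, the MHC class I light chain, had 5844 and 5037 CPM in AXL KO, against 4720 and 395 CPM in WT. The peptide transporter and loading genes Tap1, Tap2 and Tapbp and the interferon regulatory factors Irf1 and Irf9 were likewise lowest in WT replicate 2, so all 7 genes of this list were. Their log2 differences ran from 0.48 to 1.45 with a median of 0.97, and 0 of 7 passed the test. Without WT replicate 2 they ran from −0.10 to 0.52 with a median of 0.20, and those of Tap2 and Tapbp were negative, at −0.05 and −0.10. Relative to the mean of the other 3 libraries, WT replicate 2 lay at −1.91 log2 units for Psmb10, −0.96 for Psme1, −0.74 for Psme2 and −4.66 for Nlrc5.

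Most leukocyte markers were low in the same library. The summed level of 12 markers was 529 and 681 CPM in AXL KO and 580 and 401 CPM in WT. The 11 that passed the filter were all lowest in WT replicate 2, as were 5129 of all 14330 genes tested. The B cell gene Cd79a, under the filter, was highest there, with 3 and 1 counts in AXL KO and 6 and 9 in WT. The T cell genes Cd3e and Cd3d had 0.105 and 0.0524 CPM in WT replicate 2, while the macrophage gene Lyz2 had 288 CPM, most of the sum. Summed fibroblast markers had 174 and 508 CPM in AXL KO and 407 and 563 CPM in WT, endothelial markers 69.3 and 90.8 CPM in AXL KO and 82.4 and 77.2 CPM in WT, and adipocyte markers 77.5 and 82.3 CPM in AXL KO and 45.7 and 100.1 CPM in WT. None of these 3 sums set WT replicate 2 lowest, but single genes did. Lowest there were 1 of 4 fibroblast markers (Pdgfra, 13.3 CPM), 1 of 3 endothelial markers (Kdr, 19.4 CPM) and 0 of 3 adipocyte markers. Col1a1 and Col1a2, at 223.5 and 269.9 CPM, made up most of the fibroblast sum in that library. The part of these cells in the values of the inducible genes was not tested, and in such bulk tumour RNA fewer cells of a type and less RNA per cell cannot be told apart.

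The neighbours of Psme1 and Psme2 on chromosome 14 were read after these values were seen. Emc9, which lies between them, had 9.29 and 7.44 CPM in AXL KO, against 8.18 and 7.23 CPM in WT. Rnf31, a ubiquitin ligase gene on the far side of Psme2, had 50.7 and 47.3 CPM in AXL KO, against 49.99 and 19.9 CPM in WT. Irf9, next in line, had 200.1 and 170.5 CPM in AXL KO, against 145 and 44.6 CPM in WT. The low value of WT replicate 2 was thus shared by Rnf31 and Irf9, while its Emc9 value was close to that of AXL KO replicate 2. Dcaf11, on the other side of Psme1, was not low there either, with 157 and 125 CPM in AXL KO, against 131 and 125 CPM in WT.

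The 20S alpha subunits form the outer rings that gate the core. All 7 that passed the filter were lowest in WT replicate 1, as were 3265 of all 14330 genes tested. Highest in WT replicate 2 were 5 of the 7, and 4955 of all genes. The groups overlapped for 6 of the 7 alpha subunits. Psma4 was the exception, with 158.5 and 155.5 CPM in AXL KO, against 132 and 149 CPM in WT, a log2 difference of 0.16 ± 0.17 (SE). Psma1 had nearly the same log2 difference, 0.16, with 189 and 166 CPM in AXL KO, against 139 and 178 CPM in WT. The lowest was Psma7 at −0.34 ± 0.31 (SE), with 164 and 179 CPM in AXL KO, against 154 and 280 CPM in WT. Psma8, which takes the place of Psma7 in the testis, did not pass the filter, with 0 and 4 counts in AXL KO and 4 and 1 in WT. A count of 0 in AXL KO replicate 1 allows up to 0.157 CPM (3 counts of the library total, counting error only).

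The constitutive beta subunits hold the catalytic sites of Psmb5, Psmb6 and Psmb7 and the structural subunits Psmb1 to Psmb4. Psmb6, the site that cuts after acidic residues, was the steadiest of all 44 genes, with 104.2 and 106.8 CPM in AXL KO, against 107.2 and 108.5 CPM in WT. Its highest library was 1.04-fold above its lowest. Psmb5, the chymotrypsin-like site, had 69.2 and 66.9 CPM in AXL KO, against 62.9 and 70.6 CPM in WT. Psmb4 had 142 and 154 CPM in AXL KO, against 138 and 135 CPM in WT, and Psmb2 had 94.4 and 93.2 CPM in AXL KO, against 89.0 and 88.0 CPM in WT. For these 2 the AXL KO values both exceeded the WT values, by log2 differences of 0.12 ± 0.16 and 0.08 ± 0.16 (SE), each smaller than its SE. Psmb11, the thymus-specific beta subunit, did not pass the filter, with 11 and 7 counts in AXL KO and 4 and 0 in WT, where 0 allows up to 0.159 CPM.

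The 19S ATPases Psmc1 to Psmc6 form the ring that unfolds substrates, and 5 of the 6 had a negative log2 difference (median −0.12). Psmc4 had 65.4 and 69.7 CPM in AXL KO, against 82.0 and 73.4 CPM in WT, and Psmc1 had 110.1 and 109.5 CPM in AXL KO, against 113.2 and 128.6 CPM in WT. The AXL KO values were both under the WT values for these 2, with log2 differences of −0.20 ± 0.17 and −0.14 ± 0.17 (SE). Psmc3 had the lowest, −0.35 ± 0.27 (SE), and rested on WT replicate 2, with 192 and 182 CPM in AXL KO, against 181 and 295 CPM in WT. Without that library it was 0.05. The highest was Psmc2 at 0.01.

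The 14 Psmd genes, called non-ATPase subunits here, include the scaffold and lid of the cap and assembly factors, Psmd9 and Psmd10 among them. Of the 14, 11 had a negative log2 difference (median −0.03, range −0.15 to 0.17). Psmd14, the enzyme that removes ubiquitin chains from substrates, had the lowest, with 78.4 and 89.6 CPM in AXL KO, against 72.1 and 114 CPM in WT, and without WT replicate 2 it was 0.22. Psmd10, or gankyrin, an assembly factor of the cap, had the highest, with 30.3 and 25.6 CPM in AXL KO, against 24.3 and 25.4 CPM in WT, and a margin of less than 1 CPM between the groups. Psmd8, a lid subunit, had 105.6 and 103.5 CPM in AXL KO, against 109.0 and 122.9 CPM in WT. Psmd4, a ubiquitin receptor of the cap, had 80.3 and 79.5 CPM in AXL KO, against 80.7 and 86.2 CPM in WT. The AXL KO values were both under the WT values for Psmd8 and Psmd4, with log2 differences of −0.15 and −0.06, again smaller than their SE of 0.17 and 0.16.

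Among the remaining regulators, the 3 genes Psme3, Psme4 and Psmf1 had negative log2 differences of −0.06, −0.21 and −0.23. Psmf1, an inhibitor of the core, had 43.3 and 43.6 CPM in AXL KO, against 48.0 and 53.9 CPM in WT, so the groups did not overlap. Psme3, the nuclear activator PA28 gamma, had 99.6 and 109 CPM in AXL KO, against 132 and 85.8 CPM in WT. Psme4, or PA200, had 128 and 158 CPM in AXL KO, against 185 and 147 CPM in WT. Of the 4 assembly chaperones, which help the alpha ring form, Psmg2 had the lowest log2 difference of all 44 genes at −0.41 ± 0.34 (SE). Its values were 34.0 and 29.4 CPM in AXL KO, against 29.3 and 54.8 CPM in WT, and without WT replicate 2 it was 0.11. Psmg1, Psmg3 and Psmg4 lay between 0.04 and 0.08.

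The groups did not overlap for 11 of the 44 genes (25.0%), where the share over all genes tested was 29.2%. The 5 that were higher in both AXL KO libraries (11.4%, against 14.7% of all genes) were Psme2, Psma4, Psmb4, Psmb2 and Psmd10. The 6 that were lower in both (13.6%, against 14.5%) were Psmf1, Psmc4, Psmd8, Psmc1, Psmd4 and Psmb6. Without WT replicate 2, 22 of the 44 genes were higher in both AXL KO libraries than in WT replicate 1, against 33.2% of all genes, and 16 below, against 33.7%. Without WT replicate 1 the counts were 14 above, against 40.1% of all genes, and 22 below, against 38.8%.

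The spread across libraries was small for most constitutive genes. The highest library was 1.21-fold above the lowest in the median of the 41, against 1.53-fold in the median of all genes tested and 1.41-fold in that of the 10288 genes with a mean CPM at or above that of Psmg4, the lowest constitutive gene tested. A spread under 1.5-fold was seen in 34 of the 41 (82.9%), against 47.8% of all genes and 60.0% of those 10288. Psmb7, Psmg2, Psma7, Psmc3, Psmc6, Psmd14 and Psme3 exceeded it, the first at 1.92-fold and the last at 1.53-fold. WT replicate 2 was the highest library for all of these but Psme3.

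The constitutive genes highest above the other libraries in WT replicate 2 lay mostly on chromosomes 2 and 18. Of the 41, 6 lie on chromosome 2 (Psmb7, Psma7, Psmc3, Psmd14, Psmd5 and Psmf1) and 1, Psmg2, on chromosome 18. All 7 were highest in WT replicate 2, between 0.26 and 0.82 log2 units above the mean of the other 3 libraries (median 0.67). The 34 on other chromosomes lay between −0.39 and 0.50 (median 0.02). Of the 34, 14 were also highest in WT replicate 2, as were 4955 of all 14330 genes tested. Psmc6 on chromosome 14 led the 34 at 0.50, close to Psmd14 on chromosome 2 at 0.52. Over all genes tested, the median of WT replicate 2 against the other libraries was 0.40 for the 1157 genes of chromosome 2, 0.75 for the 370 of chromosome 18 and 0.40 for the 549 of chromosome 15, which holds none of the tested proteasome genes. On the other 17 chromosomes it ran from −0.12 to −0.0040. This grouping was made after the values were seen, and its cause was not tested.

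**Figure D4:**
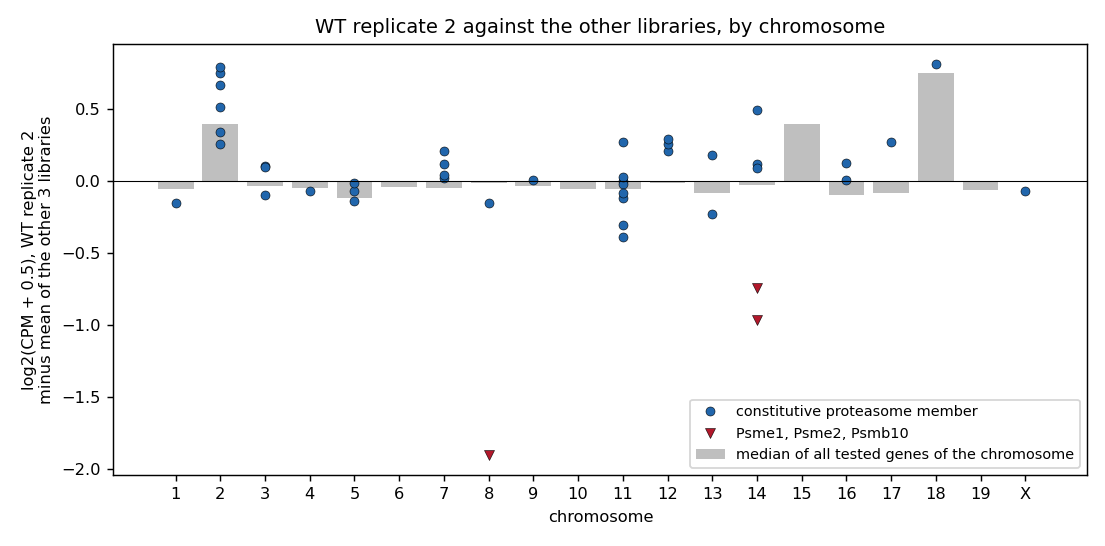
Bars give, for each chromosome, the median over all tested genes of log2(CPM + 0.5) in WT replicate 2 minus the mean of the other 3 libraries, and points give the same quantity for proteasome genes. Bars of chromosomes 2, 15 and 18 reach 0.40, 0.40 and 0.75, the proteasome genes of chromosomes 2 and 18 lie above 0, and Psme1, Psme2 and Psmb10 lie at −0.96, −0.74 and −1.91 on chromosomes whose bars are near 0.

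All 7 genes of chromosomes 2 and 18 had negative log2 differences between AXL KO and WT, from −0.41 to −0.08. The 34 on other chromosomes had a median of −0.0098, with 14 positive and 20 negative. Psmf1 kept a negative log2 difference without WT replicate 2, at −0.14, while Psmb7, Psma7, Psmc3, Psmd5, Psmd14 and Psmg2 turned positive.

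Levels of different genes were compared per merged exon length, as the mean TPM of the 4 libraries. Psma6 was highest at 397 and Psmd9, a cap assembly chaperone, lowest at 17.1. Among the 20S alpha subunits the range was 95.5 for Psma3 to 397 for Psma6 (median 184), and among the beta subunits 63.8 for Psmb3 to 245 for Psmb2 (median 184). The ATPases ran from 109 for Psmc4 to 262 for Psmc3 (median 167), and the non-ATPase subunits from 17.1 to 207 for Psmd7 (median 90.4). The Psmg chaperones were lower, from 21.9 for Psmg3 to 68.3 for Psmg2. Psmb10 averaged 74.97 TPM and Psmb7 158.5 TPM, and WT replicate 2 was extreme in both. Psmb10 had 22.9 TPM there, against 74.1 to 108.7 TPM in the other libraries. Psmb7 had 228 TPM there, against 127 to 140 TPM in the other libraries. Within an assembled particle the core subunits occur in equal numbers, so these RNA levels per length, which depend on the annotated exons, are no measure of the number of particles. Summed TPM of the constitutive core subunits was 2513 and 2663 in AXL KO, against 2465 and 2854 in WT. That of the Psmc and Psmd genes, assembly factors included, was 2270 and 2461 in AXL KO, against 2528 and 2590 in WT.

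**Figure D5:**
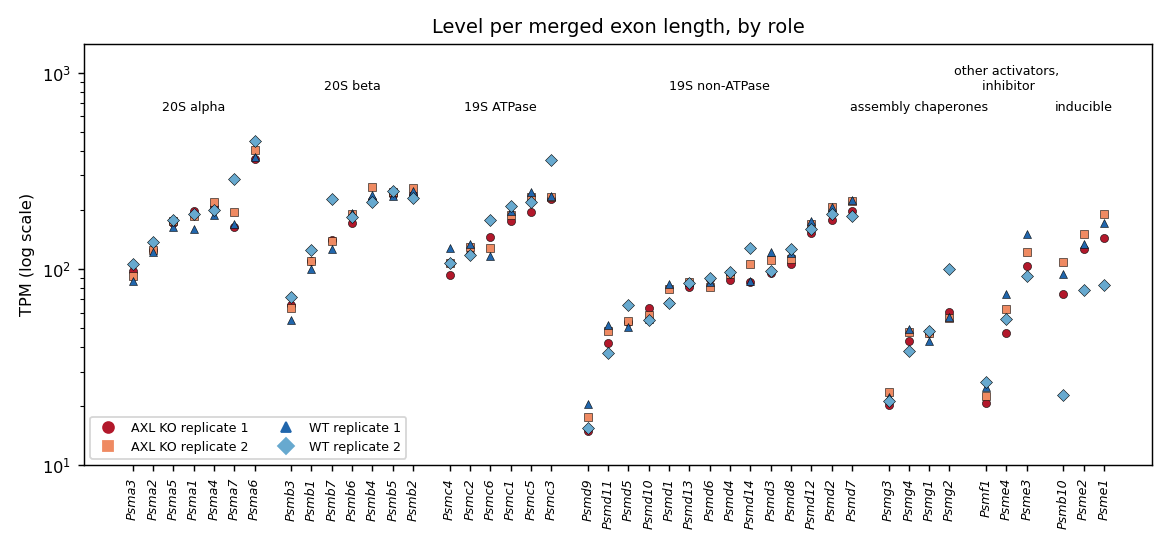
TPM on a log axis for the 44 proteasome genes that passed the low-count filter, by role and in order of the mean, with 1 point per library. Core and ATPase genes lie mostly between 100 and 400 TPM, the chaperones are lower, and WT replicate 2 falls to 22.9 TPM for Psmb10.

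Factors that work with the proteasome were read from a list of 20, of which 19 had a symbol in the annotation used. Their median log2 difference was 0.02, with 10 positive and 9 negative, and 0 of 19 passed the test. The groups did not overlap for 4 (21.1%, against 29.2% of all genes tested). Of these, 1 was higher (5.26%, against 14.7%) and 3 were lower in AXL KO (15.8%, against 14.5%). Adrm1, a ubiquitin receptor of the cap with its gene on chromosome 2, had 64.3 and 65.2 CPM in AXL KO, against 84.4 and 84.5 CPM in WT. Its log2 difference was −0.38 ± 0.16 (SE, unadjusted p = 0.0609 and adjusted p = 0.9997 in edgeR's test). Adrm1 had the most even separation of the list, and without WT replicate 2 its log2 difference was again −0.38. Nfe2l1, which drives proteasome gene transcription when proteasome activity is low, had 310 and 342 CPM in AXL KO, against 364 and 343 CPM in WT. Ddi2, the protease that activates NFE2L1, had 159 and 173 CPM in AXL KO, against 133 and 149 CPM in WT. Akirin2, which carries proteasomes into the nucleus, had 25.7 and 30.0 CPM in AXL KO, against 30.7 and 34.2 CPM in WT.

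Usp14 and Txnl1, both on chromosome 18, followed the pattern of that chromosome. Usp14, a deubiquitinase of the cap, had 113 and 111 CPM in AXL KO, against 102 and 220 CPM in WT, and Txnl1, a thioredoxin-like cap protein, had 122 and 136 CPM in AXL KO, against 127 and 243 CPM in WT. Their log2 differences were −0.53 and −0.52, and 0.14 and 0.03 without WT replicate 2. Ngly1, which deglycosylates NFE2L1, had 68.8 and 56.4 CPM in AXL KO, against 57.2 and 42.8 CPM in WT. Pomp, the maturation factor of the core, had 223 and 187 CPM in AXL KO, against 172 and 201 CPM in WT, so its groups overlapped.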

How the data were processed

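RNA of 4 tumours was measured, with groups from the genotype label and replicate numbers from the titles. The authors deposited raw counts of reads per Ensembl gene, and per the submitters' processing notes TopHat2 2.0.10 and HTSeq 0.5.3 were used, beside CASAVA 1.8 and DESeq2 1.4.5, with build GRCm38 and no role stated. The annotation and the strand setting of the counting are not stated, so reads where a gene overlaps an antisense gene are uncertain: 31 of the 41 constitutive genes have no other gene on their exons. The 5 summary lines that name no gene were left out: 5.28% to 8.11% of all reads listed were reads outside genes, 0.635% to 1.85% ambiguous and 23.2% to 28.1% not unique. Symbols, positions and merged exon lengths came from GENCODE M21 (36345 of 38293 identifiers matched, with 1948 unmatched).

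Of 20587 genes with a count, 14330 passed edgeR's filterByExpr. The groups were compared with edgeR 4.0.16 in R 4.3.3 (TMM, estimateDisp, glmQLFit with legacy=FALSE, glmQLFTest), with Benjamini-Hochberg adjustment over all 14330 genes and a threshold of 0.05; the biological coefficient of variation was 0.31. SE is the log2 difference divided by the root of its F statistic. CPM uses TMM-scaled totals, and log2 CPM per library adds 0.5. Replicates differed by far more than sampling noise (chi-square per degree of freedom 54.9 between AXL KO libraries and 133 between WT libraries). The alternatives were RLE factors, library totals, other filters, DESeq2 1.42.0, limma-voom (limma 3.58.1), a replicate block, fits leaving out each library, and subsets of genes. The tests were checked on simulated counts. Named genes were Psme1, Psme2, Psmb10, Psmb7, those whose groups did not overlap, the extremes of each role and of the level per length, those under the filter, 7 interferon genes and, of the associated factors, those without overlap and the next 4 by p. Other names were added after their values were seen. The genes and lists were chosen with earlier results of these data known. 1 gene of the interferon list is not reported here.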

Additional observations from a re-analysis of the deposited data

How the results depend on the processing

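With 44 proteasome genes tested, the count called stayed at 0 under all alternatives, including DESeq2, limma-voom and each library left out. Over all genes DESeq2 called 16 and edgeR without WT replicate 1 called 216, while the counts with 1 library left out ran from 0 to 216. The constitutive median ran from −0.05 to 0.0519 with 1 library left out, turning positive without WT replicate 2, and from −0.05 to −0.0098 otherwise. The inducible median ran from 0.03 to 0.98 with 1 library left out, and its distance from the constitutive median from −0.02 to 1.03. With 1 library left out, the genes whose kept AXL KO libraries all lay above the kept WT libraries numbered 7 to 22 (5 with all libraries). Those below numbered 7 to 22 (6 with all libraries). Over all genes tested, the shares with 1 library left out ran from 26.7% to 40.1% above and from 25.9% to 38.8% below. With all libraries these shares were 14.7% and 14.5%. Of 161 values of 23 named genes under settings that keep all libraries, 1 changed sign, Psmc2 at −0.01 with library totals. With 1 library left out, 10 of the 23 changed sign: Psmb7 ran from −0.73 to 0.21, Psma7 from −0.71 to 0.16, Psmc3 from −0.66 to 0.0481, Psmd14 from −0.44 to 0.22, Psmg2 from −0.79 to 0.11, Psma6 from −0.25 to 0.11, Psma1 from −0.0037 to 0.35, Psmc2 from −0.0325 to 0.058, Psmg4 from −0.049 to 0.23 and Psmd9 from −0.25 to 0.0538. The cause was not tested. The titles give both groups the same replicate numbers, but nothing says that a number pairs tumours, and same-numbered libraries did not deviate together (correlation −0.045 over genes). With the replicate number as a block the constitutive and inducible medians were −0.03 and 0.50, 0 of 14330 genes passed edgeR's test and 0 of the 44 had an unadjusted p under 0.05. With 2 libraries a group, the differences between the mean CPM of AXL KO and WT were smaller than the SD of the WT libraries for Psmb10 and Psme1. A fit that leaves a group with 1 library assumes that it varies like the other group.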
